A study of Mus musculus with 2 samples.

Results

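The genes described here were 10 imprinted genes, Peg3, Usp29, Zim1, Peg10, Sgce, Mest, Plagl1, Snrpn, Ndn and Grb10, chosen by name and not by their values. All 10 were found by symbol among the 55536 annotated genes of the gene table. RNA was measured by total RNA-seq in the adrenal gland of female B6CASTF1/J mice at 25 days, an F1 hybrid with a CAST parent. The study held 1 group of 2 libraries, replicate 1 and replicate 2, each made with a directional kit from 300 ng of RNA with ERCC spike-ins. The labels name no treatment and no engineered allele. The labels number the libraries as biological replicates 1 and 2 and describe the tissue pieces as from separate females. Yet they give both libraries 1 donor entry and 1 library text. An SD below thus measures how far this pair of libraries lay apart, which may be a technical spread, and the tests hold counting error alone.

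An imprinted gene is read from the copy inherited from the mother or from the father, as set by DNA methylation placed in the germ line. Such genes lie in clusters, and the methylated control region often is the promoter of a paternally expressed gene. They are known for roles in growth, metabolism and neural and endocrine tissue, and many are abundant in the fetus and fall after birth. Peg3, Usp29, Peg10, Sgce, Mest, Plagl1, Snrpn and Ndn are known as paternally expressed genes. Zim1 is known as maternally expressed, and Grb10 is read from the maternal copy in most tissues and from the paternal copy in neurons. By naming convention the first strain in an F1 name is the mother, so that a paternal copy in these mice comes from CAST. The deposited tables used here hold no counts per parental copy, so each value below sums both copies. Reads from the CAST copy can differ from the reference, and the effect of this on the counts was not tested.

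The libraries differed in makeup. Replicate 1 held 19366343 expected counts and replicate 2 held 33728646, and protein-coding genes took 36.5% and 66.7% of the counts of annotated genes. TPM is a transcript level per length that shares out the whole library on a scale of 1000000, so coding genes summed to a TPM of 206815 and 338304. Levels are therefore also given as coding-scaled TPM, which is a gene's TPM over the summed TPM of nuclear protein-coding genes other than Lars2, on the same scale. All 8 cortex and all 8 medulla markers reached 1 TPM in both libraries. The 6 tested of 7 liver markers were lower in replicate 2, with a summed coding-scaled TPM of 1001 against 11.4, and Gc had 0 counts there. These 6 (Alb, Apoa1, Serpina1b, Apob, Fgb and Gc) were the only genes of the lists and markers used here that were called with a difference of 2-fold or more between the libraries. Over all 11544 genes put to the test described below, 15.9% were called lower in replicate 2, and 148 genes differed by 2-fold or more. In bulk tissue, fewer cells of a type and less RNA per cell cannot be told apart.

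Of the 10 imprinted genes, 9 reached 1 TPM in both libraries, and Usp29 did not. The same level was reached by 22.4% of all annotated genes and by 51.5% of coding genes. The 10 genes had a median TPM of 9.34 and 17.2 in replicates 1 and 2, beside 7.40 and 12.7 TPM for the 11339 detected coding genes. On the coding scale these medians were 45.1 and 50.8 for the imprinted genes and 35.8 and 37.4 for detected coding genes. Levels ranged from Peg10, at rank 298 of 22014 coding genes by coding-scaled TPM, to Usp29 at rank 13282. Between them stood Grb10 at rank 1961, Ndn at 3191, Sgce at 3568, Mest at 3989, Peg3 at 5277, Snrpn at 7052, Plagl1 at 10853 and Zim1 at 11212.

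The order of the 10 levels was the same in both libraries. On the coding scale each gap between neighbours in that order was larger than the SD of both genes. On deposited TPM this held for Peg10 over Grb10, for Snrpn over Plagl1 and for Zim1 over Usp29, and the other neighbours did not differ beyond their spread. With 2 libraries each, an exact two-sided permutation test between genes cannot give a p under 0.33.

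**Figure D1:**
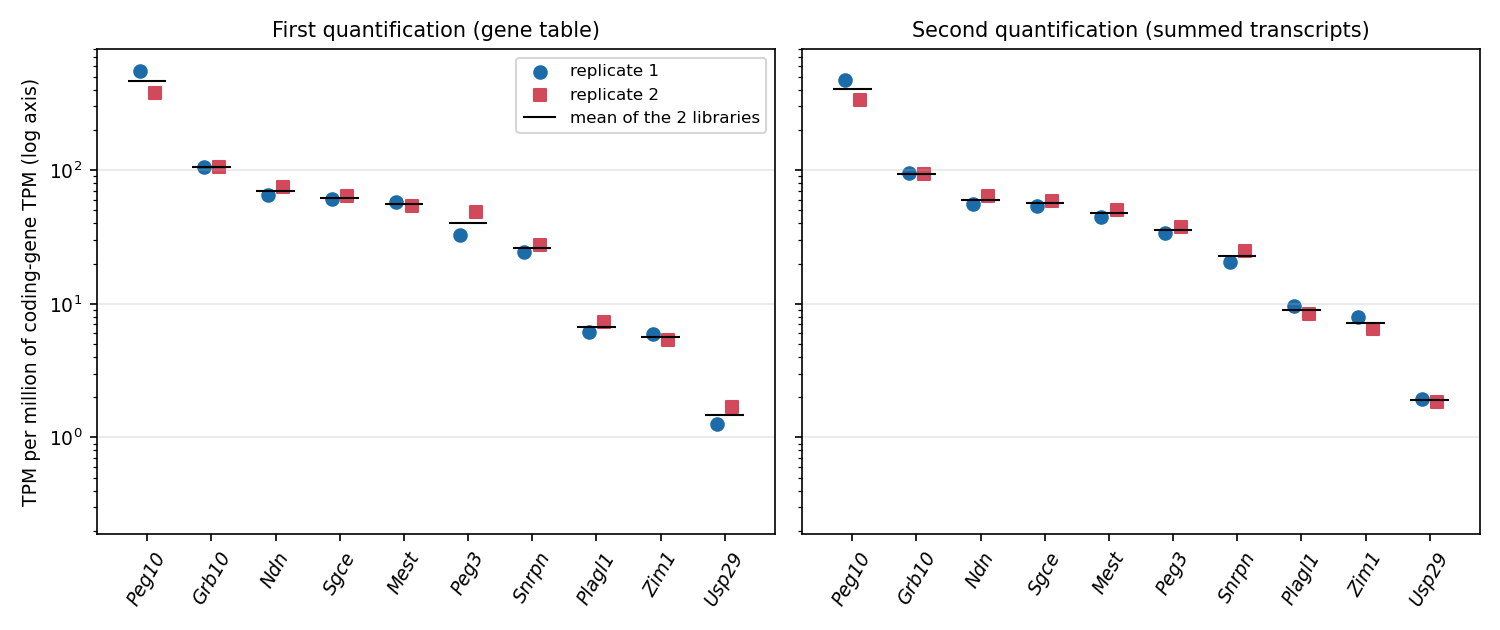
Coding-scaled TPM of the 10 imprinted genes (log axis) in replicate 1 (circles) and replicate 2 (squares), with the mean of the 2 libraries as a line, in the gene table (left) and in the second transcript table summed per gene (right). Peg10 stands highest in both panels, at a mean of 462 and 405, and Usp29 lowest, at 1.47 and 1.89.

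To compare the libraries gene by gene, counts were scaled by TMM (trimmed mean of M values), and each gene with a mean count of at least 100 was put to a two-sided exact binomial test. A gene was called at a Benjamini-Hochberg adjusted p under 0.05 over all 11544 tested genes. Of these genes 33.5% were called, 17.6% as higher in replicate 2 and 15.9% as lower. Of the 9 imprinted genes that could be tested, 4 were called. Peg3 and Ndn were higher in replicate 2, and Peg10 and Grb10 were lower. The median log2 ratio of replicate 2 over replicate 1 was 0.02 over the 9 tested imprinted genes and 0.02 over all tested genes.

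**Figure D2:**
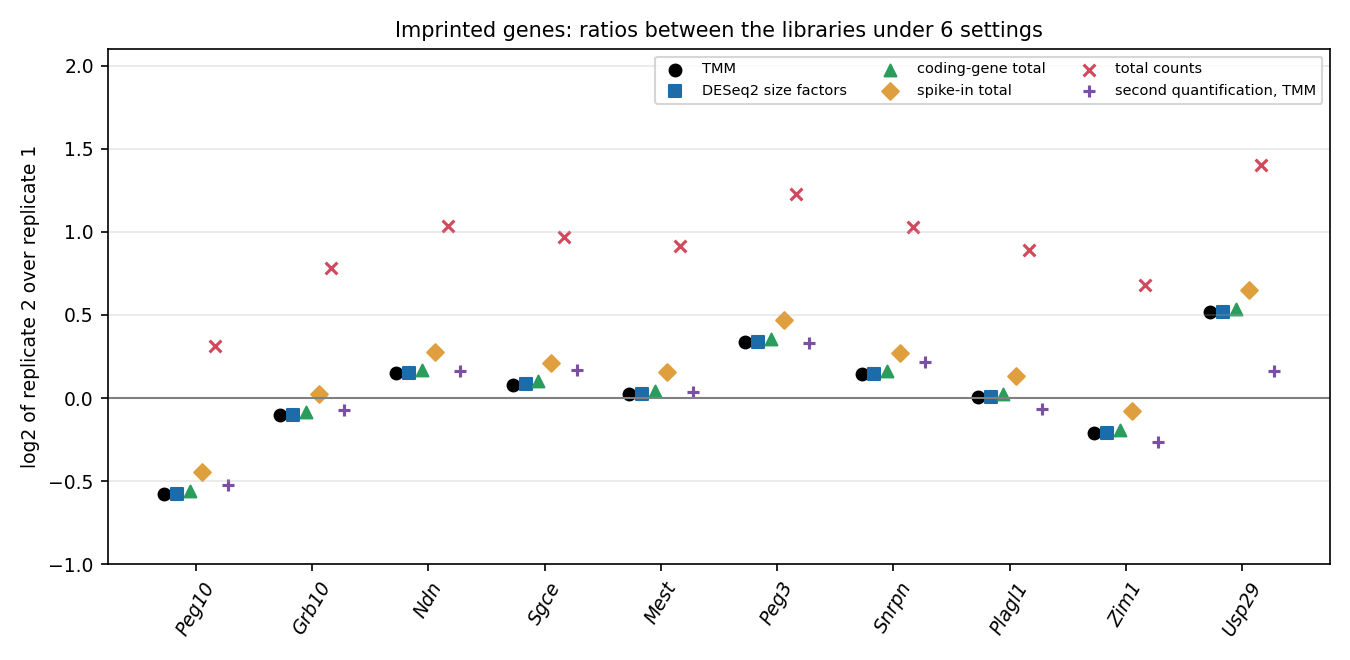
Log2 of replicate 2 over replicate 1 for each imprinted gene under 5 scalings of the gene table and in the second quantification, with 0 as the grey line. Peg10 lies lowest of the 10 genes under every setting shown, and scaling by total counts, which moves the median of all tested genes to 0.91, places every gene above 0.

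The Peg3 domain on chromosome 7 holds Peg3, Usp29 and Zim1. Peg3 (ENSMUSG00000002265.16, mm10 chr7:6703892-6730431, minus strand) encodes a large zinc finger protein known for roles in growth and maternal behaviour. Usp29 (ENSMUSG00000051527.11, chr7:6730578-6967219, plus strand) encodes a ubiquitin-specific protease and starts beside Peg3 in the opposite direction. Their annotated starts leave an interval at chr7:6730432-6730577, which overlaps no annotated exon. It is shown because these genes share it as promoter region yet stood far apart in level. It is given from RefSeq (GRCm38.p6) 5′ to 3′ on the minus strand, toward Peg3, with CpG dinucleotides, the targets of imprint methylation, in capitals.

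Peg3-Usp29 interval: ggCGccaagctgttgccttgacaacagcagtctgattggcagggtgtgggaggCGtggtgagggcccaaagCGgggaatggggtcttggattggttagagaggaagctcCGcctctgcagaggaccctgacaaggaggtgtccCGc

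These 146 bases hold 5 CpG. The RefSeq promoter windows, which run from 250 bases before a start to 50 after it, share 263 of 300 bases between Peg3 and Usp29. The windows hold 13 CpG for Peg3 and 17 for Usp29, beside a median of 7 over all 32851 RefSeq windows.

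Peg3 had 6.76 TPM in replicate 1 and 16.3 TPM in replicate 2, with expected counts of 886 and 3601. Its coding-scaled TPM was 32.7 and 48.2. Replicate 2 was higher on both scales, and by TMM the log2 ratio was 0.34 (95% interval 0.23 to 0.45, counting error only, adjusted p = 2.36e-09 by the exact binomial test). This was the largest called rise among the 9 tested imprinted genes, at 1.26-fold. Usp29 had 0.260 TPM from 14 counts in replicate 1 and 0.570 TPM from 68 counts in replicate 2. It fell under the count minimum and was not tested. Its log2 ratio of 0.52 had a 95% interval of -0.25 to 1.54, so that no difference was detectable at this depth. Within a library Peg3 stood 26.0 and 28.6 times above Usp29 by TPM. The ratio of their counts did not differ between the libraries beyond counting error (odds ratio 1.20, 95% interval 0.662 to 2.31, two-sided Fisher's exact p = 0.67, adjusted 0.81 over the 6 pairs compared).

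Zim1 (ENSMUSG00000002266.17, chr7:6671269-6696450, minus strand), a zinc finger gene next to Peg3, is known to be read from the opposite parental copy. It had 1.22 TPM from 84 counts and 1.80 TPM from 235 counts, which is 5.90 and 5.32 on the coding scale. The log2 ratio of -0.21 (95% interval -0.56 to 0.18) was not called (adjusted p = 0.45, exact binomial test). Peg3 exceeded Zim1 by 5.54 times in replicate 1 and 9.06 times in replicate 2. The ratio of their counts was lower in replicate 1, with an odds ratio of 0.688 (95% interval 0.528 to 0.904, two-sided Fisher's exact p = 0.0060, adjusted 0.012). The second transcript table, which holds another quantification of the same libraries, gave ratios of 4.24 and 5.84.

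Of the 8 annotated genes on the list for this domain, Peg3 and Zim1 alone reached 1 TPM in both libraries. Zfp78, a zinc finger gene further along, had 0.760 and 1.55 TPM. Zim3, Zfp264 and Aurkc had 0 counts in both libraries, and Zim2 had 1 count in replicate 1 and 0 in replicate 2. Of the 2 genes tested, Peg3 was called, beside 33.5% of all tested genes.

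The transcript tables split each gene over its annotated transcripts. The coding transcript Peg3-201 took 86.2% and 74.7% of the Peg3 TPM in the first table and 70.1% and 80.0% in the second. Peg3-204, annotated as a retained intron, took 9.91% and 10.2% in the first table. Usp29 was spread over several transcripts, led on average by Usp29-205, a processed transcript with 42.3% and 23.2% from 7.81 and 17.5 counts in the first table. In replicate 1 of that table Usp29-201, from a distant start at 6961160, led with 46.2% from 5 counts, and it held 0% in replicate 2. The starts beside Peg3 thus held 53.8% and 91.1% of Usp29 in the first table and 76.7% and 85.0% in the second. The retained intron form Usp29-206 held 11.5% and 14.3%, and in the second table Usp29-202 and Usp29-208 passed 10% in both libraries as well. In Zim1 the longest form, Zim1-201, led the first table with 45.1% and 42.8%, while the short Zim1-204 led the second with 43.0% and 39.0%. Zim1-204 held 20.5% and 19.4% in the first table, from 1.25 and 3.37 counts, so that its share rested on few reads and a short length. Zim1-202 held 10.7% and 15.6% there, and Zim1-203 held 23.8% and 22.2%.

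The Peg10-Sgce domain on chromosome 6 holds a pair of genes that start side by side in opposite directions. Peg10 (ENSMUSG00000092035.8, chr6:4747306-4760517, plus strand) derives from a retrotransposon, keeps gag-like and pol-like reading frames and is required for the placenta. Sgce (ENSMUSG00000004631.15, chr6:4674350-4747207, minus strand) encodes epsilon-sarcoglycan, a membrane glycoprotein whose human counterpart is mutated in myoclonus-dystonia. The starts of Peg10-202 and Sgce-205 lie 102 bases apart. The RefSeq promoter table had no entry for Peg10 or Sgce.

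Peg10 was the most abundant of the 10 genes, with 113 TPM in replicate 1 and 127 TPM in replicate 2 from 12025 and 25905 counts. Its reads were 73.5% and 63.8% of all counts of the 10 genes. Its coding-scaled TPM was 549 in replicate 1 and 376 in replicate 2, so that replicate 1 was the higher library there and the lower one by deposited TPM. By TMM the log2 ratio was -0.58 (95% interval -0.61 to -0.55, counting error only, adjusted p = 7.43e-270, exact binomial test), or 0.671-fold. This was the largest difference in size among the 9 tested imprinted genes, and the second quantification gave -0.53. The spread over all tested genes had a median size of 0.16 on the same scale.

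Sgce, at a lower level, gave another ratio between the libraries. It had 12.6 TPM from 329 counts and 21.7 TPM from 1120 counts, and on the coding scale 60.7 and 64.0. Its log2 ratio of 0.08 (95% interval -0.09 to 0.27) was not called (adjusted p = 0.53, exact binomial test). Peg10 stood 9.04 times above Sgce by TPM in replicate 1 and 5.88 times in replicate 2. The ratio of their counts was higher in replicate 1, with an odds ratio of 1.58 (95% interval 1.39 to 1.80, two-sided Fisher's exact p = 1.04e-13, adjusted 6.24e-13). This comparison needs no scaling between the libraries, and the second transcript table gave 8.79 and 5.71.

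Some marker lists also were lower in replicate 2. All 6 adipocyte markers were called lower, with a median log2 ratio of -0.38 and a summed coding-scaled TPM of 3833 in replicate 1 and 2909 in replicate 2. Of the 6 tested capsule and fibroblast markers 3 were called lower and none higher, with sums of 522 and 376. None of these adipocyte or fibroblast markers was at 0 in either library. Of the 5 erythroid markers 4 were called lower and 1 higher, with a median log2 ratio of -0.15 and sums of 7336 and 6173, and none was at 0. These counts stand beside 15.9% of all tested genes called lower and 17.6% called higher. The part of these lists and of the liver markers given above in the Peg10 difference was not tested.

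Of the 11 genes on the list for this domain 8 reached 1 TPM in both libraries. After Peg10 the highest were Pon3, a lactonase of the paraoxonase family, at 37.8 and 55.4 TPM, and Sgce. Pon3 was not called (log2 ratio -0.03). Ppp1r9a, which encodes an actin-binding scaffold and is known as imprinted in some tissues, was the only gene of the 6 tested called higher, at 0.13 (adjusted p = 0.026, exact binomial test), and Peg10 the only one called lower. These calls stand beside 17.6% of all tested genes called higher and 15.9% lower. The calcitonin receptor gene Calcr had 0 counts.

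**Figure D3:**
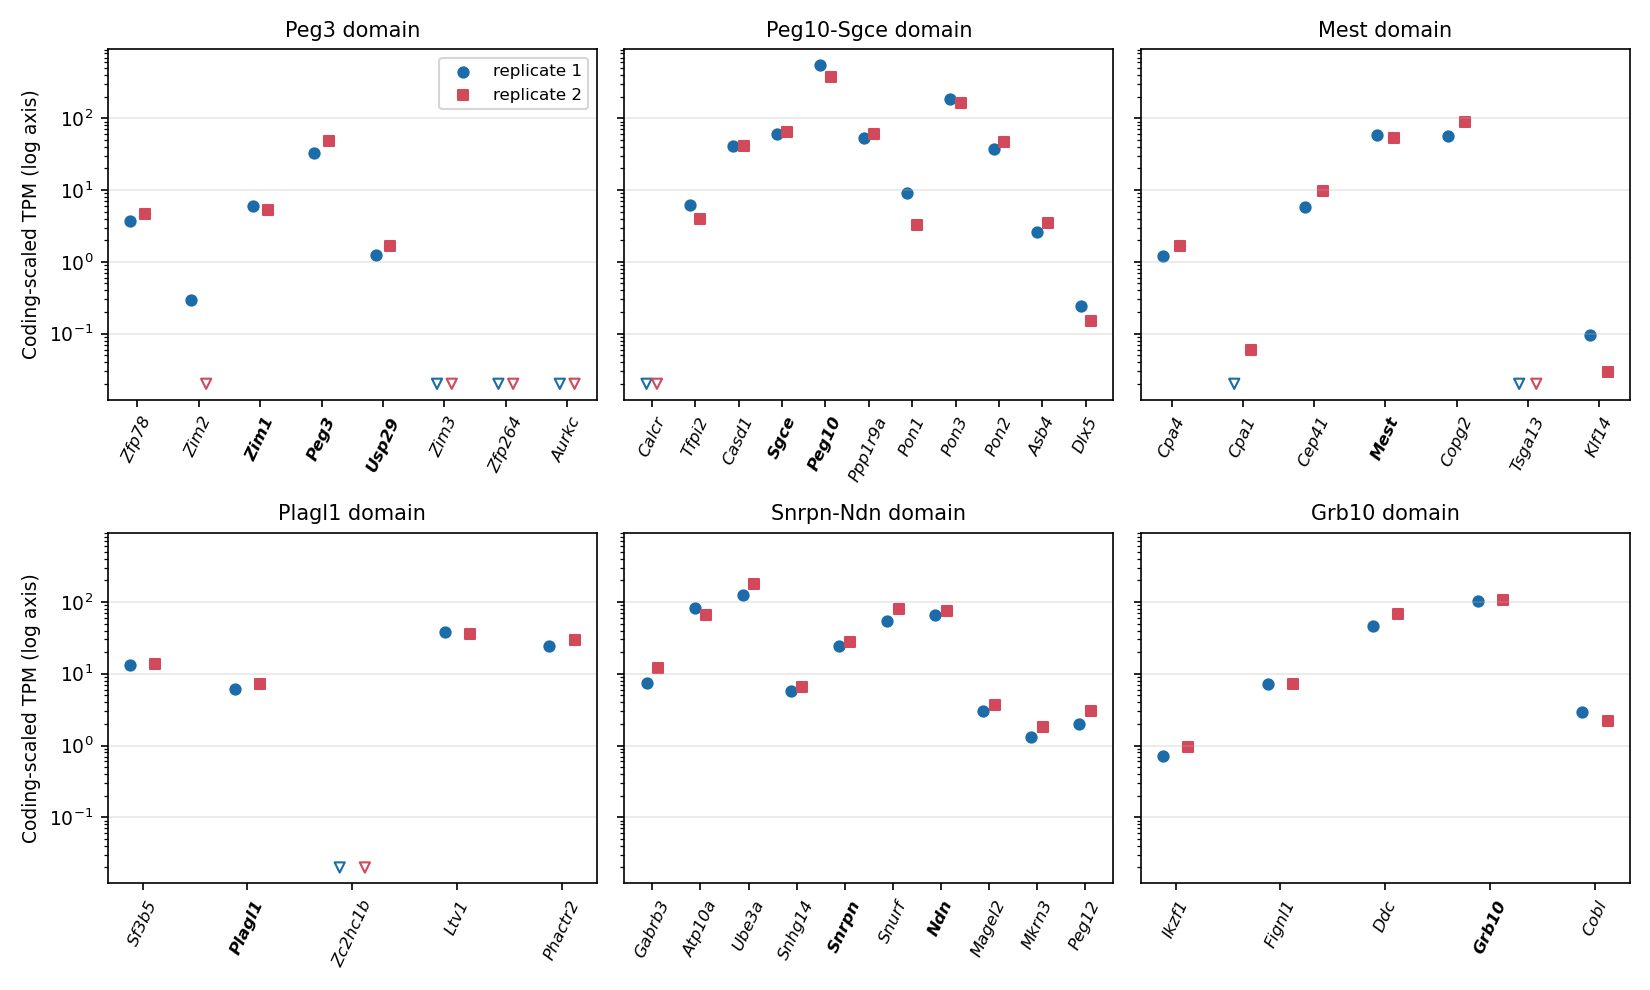
Coding-scaled TPM (log axis) of the listed genes of 6 imprinted domains in replicate 1 (circles) and replicate 2 (squares), ordered by position, with the 10 imprinted genes of this description in bold. Open triangles near the bottom mark a level of 0. Peg10 is the highest point of all panels, and Zim3, Zfp264, Aurkc, Calcr, Tsga13 and Zc2hc1b are at 0 in both libraries.

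The tables did not settle which Peg10 transcript was used. Peg10-203 held 97.0% and 95.6% of the gene in the first table and 49.7% and 6.26% in the second. Peg10-202, which starts 100 bases upstream, held 3.00% and 4.30% in the first table and 50.3% and 93.6% in the second. All 3 Peg10 transcripts start within these 100 bases. For Sgce, transcripts that start beside Peg10 held 96.8% and 97.0% in the first table and 97.4% and 96.8% in the second. Sgce-205 led the first table with 44.6% and 84.8%. In the second table Sgce-207 held 50.5% in replicate 1 and 26.0% in replicate 2, where Sgce-205 held 27.7% and 58.8%.

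Mest (ENSMUSG00000051855.15, chr6:30723547-30748465, plus strand) encodes a protein of the alpha/beta hydrolase fold known to rise in growing fat tissue and in the embryo. Its paternal promoter is a CpG-rich region, and further starts lie upstream. The sequence before the main start and before the upstream start is shown because the tables placed Mest reads differently between them. Both are from RefSeq (GRCm38.p6) on the plus strand, at chr6:30737800-30738049 and chr6:30733256-30733453, with CpG in capitals. Neither overlaps an annotated exon.

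Mest main start: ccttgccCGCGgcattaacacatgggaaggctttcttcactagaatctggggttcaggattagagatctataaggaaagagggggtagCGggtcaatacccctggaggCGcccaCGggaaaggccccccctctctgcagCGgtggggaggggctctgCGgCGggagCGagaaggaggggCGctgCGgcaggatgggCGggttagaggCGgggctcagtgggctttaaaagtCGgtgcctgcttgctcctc
Mest upstream start: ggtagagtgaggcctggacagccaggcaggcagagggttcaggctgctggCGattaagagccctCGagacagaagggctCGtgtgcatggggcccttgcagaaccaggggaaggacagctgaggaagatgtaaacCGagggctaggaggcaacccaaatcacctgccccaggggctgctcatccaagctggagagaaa

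The main stretch of 250 bases holds 14 CpG and the upstream stretch of 198 bases holds 4. Main-start windows of RefSeq held TGCCGC, searched on both strands, at 2 places, both as its reverse complement. This hexamer is the motif bound by ZFP57, a zinc finger protein that protects methylated imprints, and 11.6% of all RefSeq windows hold it. A match is a description of letters and not a bound site.

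Mest had 11.9 TPM in replicate 1 from 383 counts and 18.1 TPM in replicate 2 from 1254 counts. On the coding scale the libraries lay close together, at 57.6 and 53.4. The log2 ratio was 0.02 (95% interval -0.14 to 0.20) and was not called (adjusted p = 0.86, exact binomial test). The leading transcript was Mest-211 in every library of both tables, with 71.5% and 87.9% in the first table and 78.1% and 59.0% in the second. Transcripts from the main start together held 78.3% and 98.2% in the first table and 91.7% and 67.5% in the second. The upstream start at 30733454 to 30733506 held 5.04% in replicate 1, from 22.3 counts, and 0% in replicate 2 in the first table. In the second table it held 27.9% in replicate 2 from 226 counts and next to nothing in replicate 1. The tables thus placed the reads of this start in opposite libraries. A start further upstream, at 30723547, held 12.0% and 0.719% in the first table, from 6.65 and 1 counts. It held 0% in both libraries of the second table.

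Copg2, a coat protein subunit gene on the other strand whose 3′ end overlaps Mest by 912 bases, was higher in replicate 2. It had 11.6 and 29.6 TPM and a log2 ratio of 0.30 (adjusted p = 1.07e-05, exact binomial test). Mest to Copg2 by TPM was 1.03 in replicate 1 and 0.610 in replicate 2. The count ratio differed between the libraries with an odds ratio of 1.21 (95% interval 1.05 to 1.40, two-sided Fisher's exact p = 0.0094, adjusted 0.014). The second table gave TPM ratios of 0.866 and 0.780. Of the 7 annotated genes on this list, Mest, Copg2 and Cep41 reached 1 TPM in both libraries. Cep41, a centrosomal protein gene, had 1.20 and 3.26 TPM, and Tsga13 had 0 counts.

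Plagl1 (ENSMUSG00000019817.18, chr10:13060504-13131694, plus strand) encodes a zinc finger transcription factor, also named Zac1, known to restrain growth of cells and to act on other imprinted genes. It had 1.28 TPM from 61 counts in replicate 1 and 2.47 TPM from 199 counts in replicate 2, or 6.19 and 7.30 on the coding scale. The log2 ratio was 0.01, and its 95% interval of -0.40 to 0.46 shows how wide the counting error was at this depth (adjusted p = 1.0, exact binomial test). The deposited TPM lay outside the interval that the gene table itself gives for it, which ran from 3.40 to 6.94 in replicate 1 and from 3.47 to 5.87 in replicate 2. The second quantification gave 2.79 and 5.17 TPM. The same mismatch was found for Peg10 in both libraries and for Usp29 in replicate 1, so the Plagl1 level is uncertain by more than its SD.

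Plagl1 has 25 annotated transcripts, of which 22 start between 13090691 and 13091013. That start group held 78.0% and 84.1% of the gene in the first table and 65.9% and 82.4% in the second. Plagl1-202 led the first table with 38.6% and 45.1%. In the second table it held 20.3% and 35.2% and led replicate 2 alone, since Plagl1-223 led replicate 1 with 29.4% from 1 count. Plagl1-208, a short form from a start further along, passed 10% in both libraries of the second table with 26.3% and 13.8%, from 3.92 and 4.80 counts. The RefSeq window at the main start held 26 CpG, more than 83.1% of all windows, and a single TGCCGC match.

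Neighbours of Plagl1 were more abundant. Ltv1, a ribosome assembly factor gene, had 7.78 and 12.0 TPM and was called lower in replicate 2 (log2 ratio -0.44, adjusted p = 0.00071). Phactr2, a phosphatase and actin regulator gene, had 5.04 and 10.1 TPM and was called higher at 0.31 (adjusted p = 0.00022, both by the exact binomial test). Sf3b5, a splicing factor gene, had 2.76 and 4.67 TPM and was not called. Zc2hc1b, the remaining gene of the 5 on this list, had 0 counts.

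The Snrpn-Ndn domain on chromosome 7 corresponds to the human Prader-Willi and Angelman region. Snrpn (ENSMUSG00000102252.5, chr7:59982495-60140219, minus strand) encodes SmN, a core protein of splicing particles found mainly in brain and other neural tissue. Its annotated transcripts Snrpn-201 and Snrpn-202 start 135108 bases apart, and RefSeq has 4 windows for it. Ndn (ENSMUSG00000033585.5, chr7:62346569-62350262, plus strand) encodes necdin, a MAGE family protein known for restraining division in neurons. The palindrome CGCATGCG, like the motif known for the factor NRF1, occurred in all 4 Snrpn windows and in the Ndn window. It was chosen after the sequences had been seen, and 1.87% of the RefSeq windows hold it. The surroundings of each match are shown because these genes share the octamer and lie in 1 imprinted domain. They are from RefSeq (GRCm38.p6), named by gene and RefSeq start, with the octamer in capitals.

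Snrpn 60450177: caaacatccaCGCATGCGtgattggaag
Snrpn 60140225: caaacatccaCGCATGCGtgatgggagg
Snrpn 60047978: caaacatgcaCGCATGCGtcgttgaagg
Snrpn 60005199: ttgcctgggaCGCATGCGtaggga
Ndn 62348277: cttcccaacaCGCATGCGcaatatcgca

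In order these lie at chr7:60450223-60450250, chr7:60140286-60140313, chr7:60048032-60048059 and chr7:60005150-60005173 on the minus strand and at chr7:62348244-62348271 on the plus strand. The Ndn stretch overlaps the annotated exon of Ndn-201, and the Snrpn stretches overlap no annotated exon. The stretches of the 2 most upstream Snrpn windows are the same at 26 of 28 bases, and the third equals each of them at 23. The stretch at the start nearest the Snrpn coding part equals the Ndn stretch at 13 of 24 bases, of which 8 are the octamer. Its octamer begins 36 bases after the RefSeq start, while the others begin 78 to 23 bases before theirs. YY1 is a zinc finger factor that binds several imprinted control regions, and its core GCCAT, searched on both strands, was found in 6 of the 14 windows of the 8 imprinted genes with an entry and in 40.5% of all windows. TGCCGC was found in 6 of the 14 windows, of which 2 are Mest windows that overlap.

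Snrpn had 5.06 TPM from 152 expected counts in replicate 1 and 9.39 TPM from 542 in replicate 2. Its coding-scaled TPM was 24.5 and 27.8. The log2 ratio of 0.14 (95% interval -0.11 to 0.42) was not called (adjusted p = 0.42, exact binomial test). Ndn had 13.5 TPM from 795 counts and 25.1 TPM from 2837 counts, or 65.3 and 74.2 on the coding scale. Its log2 ratio of 0.15 (95% interval 0.04 to 0.27) was called higher in replicate 2 (adjusted p = 0.028, exact binomial test). It lost the call when genes of any count were tested (adjusted p = 0.053).

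Snrpn to Ndn by TPM was 0.375 in replicate 1 and 0.374 in replicate 2. The count ratio did not differ beyond counting error, with an odds ratio of 1.00 (95% interval 0.817 to 1.22, two-sided Fisher's exact p = 1, adjusted 1). The second table gave ratios of 0.368 and 0.387. The size of this ratio depends on the gene models. Ndn-201, the only Ndn transcript of the annotation, is 3694 bases long and starts 1708 bases before the RefSeq start, whereas the RefSeq gene spans 1652 bases. A shorter model would raise the Ndn TPM for the same reads.

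Snrpn also depends on how reads are split among overlapping genes of its strand. Snurf, a small reading frame gene upstream of Snrpn on the same transcript, had 21.7 and 99.3 expected counts in the gene table and none in the second table. Gm38393, annotated as coding across the same locus, had 25.9 and 126 counts. The 3 genes together had 200 and 768 counts, with a log2 ratio of 0.25, and 213 and 794 in the second table. The TPM of 11.3 and 27.0 listed for Snurf rests on these few counts over a short gene.

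The first table put 100% and 98.2% of Snrpn on Snrpn-201, while the second put 100% on Snrpn-202 in both libraries. The share of each start therefore is not determined by these tables, and the level at the gene is given instead. Of the 10 genes on this list 7 reached 1 TPM in both libraries. Ube3a, a ubiquitin ligase gene known as maternally expressed in neurons, led with 25.8 and 60.8 TPM and was not called (log2 ratio -0.07). Atp10a, a phospholipid transporter gene, had 16.8 and 22.1 TPM and was called lower in replicate 2 at -0.35 (adjusted p = 4.23e-13, exact binomial test). Ndn was the gene called higher among the 6 tested and Atp10a the gene called lower, beside 17.6% and 15.9% of all tested genes.

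**Figure D4:**
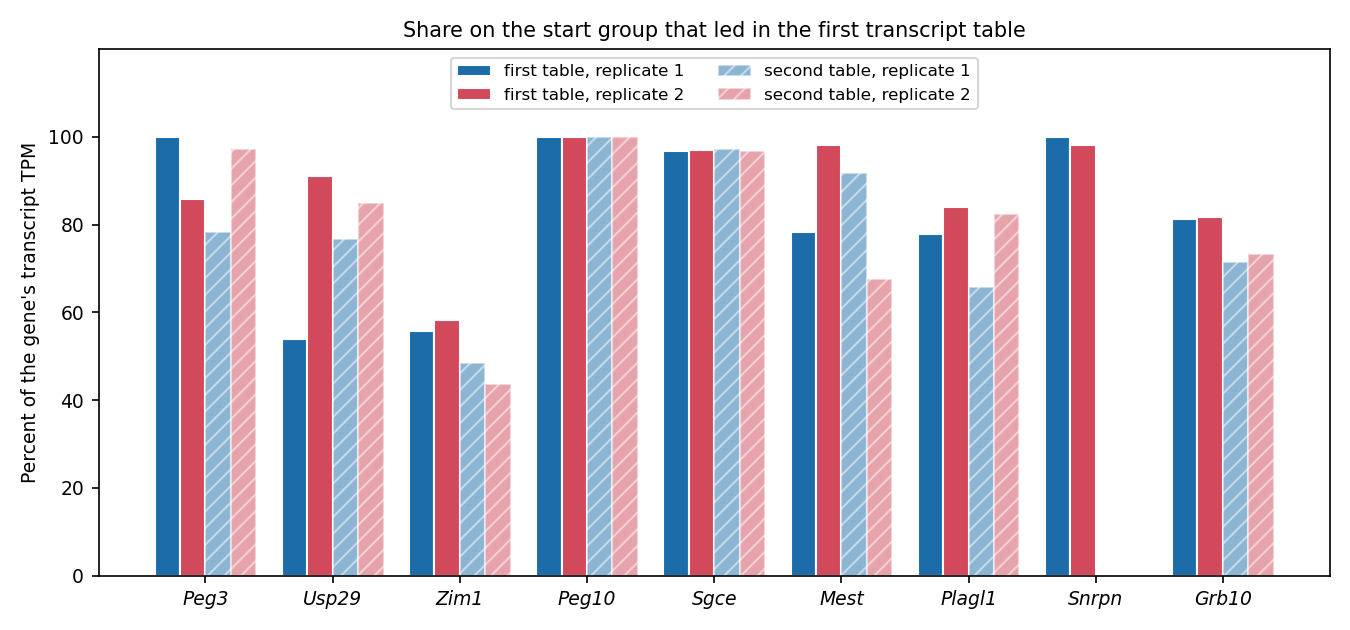
Percent of each gene's transcript TPM on the group of annotated starts that led in the first transcript table. Each start of a group lies within 500 bases of the next. Bars show replicate 1 and replicate 2 in the first (solid) and second (hatched) table. Peg10 and Sgce stay above 95 in all 4 bars, Snrpn stands at 100 and 98.2 in the first table and at 0 (no bar) in the second, and Mest moves in opposite directions between the libraries.

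Grb10 (ENSMUSG00000020176.17, chr11:11930508-12038683, minus strand) encodes an adaptor that binds the insulin receptor and the IGF1 receptor and limits growth signalling. The maternal copy is read from a CpG-rich upstream promoter in most tissues, and starts downstream of it are known to serve the paternal copy in neurons. The sequences before the main start and before a downstream start are shown because they are the RefSeq windows between which the tables can place Grb10 transcripts. They are from RefSeq (GRCm38.p6) on the minus strand, at chr11:12037421-12037670 and chr11:12027972-12028221, with CpG in capitals, and overlap no annotated exon.

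Grb10 main start: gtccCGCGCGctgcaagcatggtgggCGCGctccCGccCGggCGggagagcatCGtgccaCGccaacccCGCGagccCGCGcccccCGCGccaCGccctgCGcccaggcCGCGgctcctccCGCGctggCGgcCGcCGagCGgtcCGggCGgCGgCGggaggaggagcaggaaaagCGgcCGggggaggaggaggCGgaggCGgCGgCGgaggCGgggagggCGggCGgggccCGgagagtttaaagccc
Grb10 downstream start: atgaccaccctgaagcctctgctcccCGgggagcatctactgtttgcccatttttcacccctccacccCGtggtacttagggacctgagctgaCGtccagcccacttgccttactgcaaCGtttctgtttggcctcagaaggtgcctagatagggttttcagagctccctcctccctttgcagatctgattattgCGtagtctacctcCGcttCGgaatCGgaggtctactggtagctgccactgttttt

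The main stretch holds 40 CpG in 250 bases and the downstream stretch 8. The whole 300-base window at the main start holds 45, more than 98.1% of RefSeq windows and the most among the 14 windows of these genes.

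**Figure D5:**
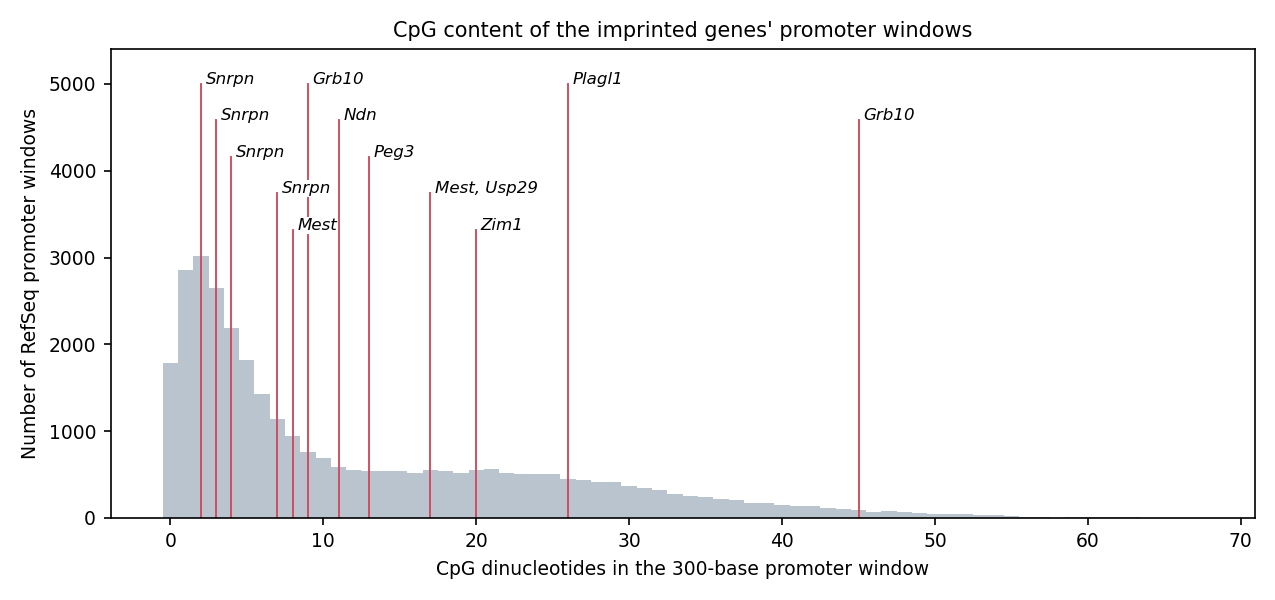
Number of RefSeq promoter windows of 300 bases (bars) by their count of CpG dinucleotides, with red lines at the counts of the 14 windows of the 8 imprinted genes that have an entry. The Grb10 main window stands at 45, and the 4 Snrpn windows lie between 2 and 7.

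Grb10 had 21.7 TPM in replicate 1 from 1627 counts and 35.6 TPM in replicate 2 from 4862 counts. On the coding scale the libraries were nearly equal, at 104.7 and 105.2. The TMM log2 ratio of -0.10 (95% interval -0.19 to -0.02) was called lower in replicate 2 (adjusted p = 0.038, exact binomial test). The call was lost when scaled by the coding-gene total (-0.09, adjusted p = 0.10), in the second quantification (-0.07, adjusted p = 0.16) and with genes of any count tested (adjusted p = 0.070). Scaled by the spike-ins the call was lost as well, at a ratio of 0.025 (adjusted p = 0.65, exact binomial test). Under that scaling the median of all tested genes moved to 0.15.

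Grb10-201, from the main start, held 81.4% and 81.7% in the first table and 71.6% and 73.3% in the second. Grb10-203, from the downstream start 9430 bases away, held 8.13% and 2.25% in the first table and 5.90% and 4.88% in the second. Starts at 12026324 to 12026732 held 0.970% and 11.9% in the first table, from 2.90 and 55.3 counts. In the second they held 0% and 11.4%, from 0 and 91.7 counts. Grb10-206, which starts upstream at 12038683, held 12.1% in replicate 1 of the second table, from 25.4 counts. It held 0% in replicate 2 there and in both libraries of the first table. The main start was the larger by far in both libraries and both tables.

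Ddc, the adjacent gene, encodes DOPA decarboxylase, the enzyme that makes dopamine, and is active in the adrenal medulla. It had 9.45 and 23.2 TPM and was called higher in replicate 2 at 0.51 (adjusted p = 8.66e-07, exact binomial test). Grb10 to Ddc was 2.29 in replicate 1 and 1.54 in replicate 2 by TPM, and the count ratio differed with an odds ratio of 1.53 (95% interval 1.32 to 1.78, two-sided Fisher's exact p = 3.20e-09, adjusted 9.59e-09). Of the 8 medulla markers, which include Ddc, 6 were called higher and 2 lower, with sums of 4982 and 5309 on the coding scale, beside 17.6% and 15.9% of all tested genes. Their part in this ratio was not tested. Fignl1, a helicase-associated ATPase gene, had 1.51 and 2.46 TPM and was not called. Cobl and Ikzf1, the other 2 of the 5 genes on this list, stayed under 1 TPM in both libraries.

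Other imprinted genes gave a scale for these levels. Of 16 annotated genes listed here under the paternal copy, 15 reached 1 TPM in both libraries. Of 15 tested, 3 were called higher in replicate 2 and 4 lower, with a median log2 ratio of -0.02. The listing is a label, since the copy that is read can differ between tissues and was not tested here. Dlk1, a Notch-like ligand gene, was the highest at 125 and 213 TPM, above Peg10 in each library, followed by the noncoding Peg13 at 20.9 and 26.8 and the membrane protein gene Nnat at 15.0 and 30.0. Of 17 genes listed under the maternal copy, some of which may be imprinted in other tissues only, 13 reached 1 TPM in both libraries. Of 13 tested, 3 were called higher and 4 lower, with a median of -0.03. For these genes too the copy read in the adrenal gland was not tested. Over all tested genes 17.6% were called higher and 15.9% lower, with a median of 0.02. Gnas, for a G protein subunit, had 519 and 823 TPM, the noncoding Meg3 had 191 and 351, and the cell cycle inhibitor gene Cdkn1c had 141 and 298, all 3 above Peg10 in each library.

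Of 13 genes for factors that keep imprints, 9 reached 1 TPM in both libraries, none of the 9 tested was called higher and 2 were called lower. These counts stand beside 51.5% of coding genes detected, and 17.6% of all tested genes called higher and 15.9% lower. Trim28, a corepressor gene, had 62.5 and 90.1 TPM, the zinc finger gene Zfp445 had 24.7 and 45.5, and Yy1 had 21.1 and 25.7. Zfp57 had 0.520 and 1.24 TPM from 11 and 58 counts. Of 14 paralogs with matching roles 8 reached 1 TPM, and of the 8 tested none was called higher and 1 lower, beside the same shares. Snrpb, which encodes the Sm protein B whose place SmN can take, had 37.5 and 57.5 TPM, well above Snrpn in each library. Maged1, a MAGE family gene like Ndn, had 49.3 and 82.3 TPM, also above Ndn in each library, and the sarcoglycan gene Sgcb had 4.47 and 8.86 TPM, below Sgce.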

How the data were processed

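Total RNA-seq of 2 adrenal gland libraries was analysed. Gene tables of expected counts and TPM, and transcript tables of estimated counts, TPM and isoform percent, were used as the authors deposited them. Notes deposited with the tables name mm10 and GENCODE M21, and for the programs, the sources used here give none. The second transcript table, told apart by its column headers, holds another quantification of the same libraries. The deposited 95 percent TPM bounds were compared with the TPM.

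Symbols were taken from the transcript identifiers. Expected counts were rounded and scaled by TMM (edgeR 4.0.16); log2 ratios used a prior of 1 count. A two-sided exact binomial test (scipy 1.17.1) compared the libraries where a gene averaged 100 counts or more, with Benjamini-Hochberg adjustment. It was tried on simulated libraries that held set fold changes and counting error alone. That trial cannot speak to a spread between animals or preparations, or to the TMM scaling. Rows that are no annotated gene, 0.473% and 0.797% of counts, were left out. With 1 group of 2 libraries no model between groups could be fitted. Transcripts were grouped where each start lay within 500 bases of the next, a grouping added after the values were seen. RefSeq promoter windows (GRCm38.p6) matched 8 of 10 genes by symbol.

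Named are the 10 genes, the 3 highest genes by mean TPM of each list, any listed gene called with a log2 ratio of at least 1 in size, the leading transcripts and those with 10% or more in both libraries; further neighbours were named after their values were seen. The genes and lists were chosen with earlier results of these data known. Alternatives were total counts, DESeq2 1.42.0 size factors, spike-in and coding totals, other count and TPM minimums, the second quantification, a shorter promoter window and leaving out each library.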

Additional observations from a re-analysis of the deposited data

How the results depend on the processing

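Scaled by total counts, all 9 tested imprinted genes were called, with a median log2 ratio of 0.91, and Zim1 (0.68), Peg10 (0.31) and Grb10 (0.78) turned higher in replicate 2. That scaling moved the median of all tested genes equally, to 0.91. The spike-in total gave a median of 0.15 and a Grb10 ratio of 0.025, which was not called, and brought Sgce (0.21, adjusted p = 0.041, exact binomial test) over the threshold. With no minimum count 2 genes were called, since many more genes were tested. The share of all tested genes called was worked out under TMM with the count minimum alone. The counts of 9 and 2 thus have no such share beside them. The median level of the 10 genes was 13.3 TPM, 48.0 on the coding scale and 19.3 TPM in the second quantification. It ranged from 9.34 to 17.2 when either library was left out, with 9 genes detected each time. In the second quantification Peg3 to Usp29 was 18.98 and Snrpn to Ndn 0.378. Single libraries gave 26.0 to 28.6 and 0.374 to 0.375 for these ratios. DESeq2 size factors changed no call among the 10 genes. Shares of single transcripts differed between the tables beyond their spread for 5 of 9 genes, and the cause was not tested. No paired analysis was possible because there was 1 group. Depth limited Usp29, Zim1 and Plagl1 most.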
